A study of Mus musculus with 12 samples.

Results

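Guanylate-binding proteins (GBPs) were followed in 12 RNA sequencing libraries of the mouse dendritic cell line Sp37A3 through the 8 genes Gbp2, Gbp3, Gbp4, Gbp5, Gbp6, Gbp7, Gbp8 and Gbp9, chosen by name from this interferon-responsive family, which are 8 of the 55401 genes in the deposited counts. Sp37A3 is an immature dendritic cell line derived from C57BL/6 mouse spleen and kept in GM-CSF and M-CSF. CtrV cells carried an empty control vector and were labelled as expressing Siglec-E, an inhibitory sialic acid receptor. EKO cells were transduced with CRISPR-Cas9 against Siglece, were labelled as knockout, and were a pool of several single clones. Every group was LPS-stimulated, and RNA was taken after 24 h. CtrV_OVA and EKO_OVA cells were also pulsed with ovalbumin (OVA) at 0.1 mg/ml for 2 h, and CtrV_ut and EKO_ut cells were not. Each of the 4 groups had 3 replicates. The labels do not say whether these were separate cultures, so p-values measure the spread between these libraries, which may be technical.

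GBPs are large GTPases of the dynamin superfamily. Interferons, above all interferon gamma, switch their genes on, and in macrophages and dendritic cells the proteins gather on the membranes of vacuoles that hold bacteria or parasites and on bacteria themselves. There they help to break these membranes and to expose ligands to inflammasomes. Some members, such as Gbp2 and Gbp5, end in a CaaX motif to which a lipid is attached, and this anchors them to membranes.

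In the mouse the genes lie in 2 clusters (mm10/GRCm38, GENCODE annotation). On the plus strand of chromosome 3 they follow each other as Gbp5 (142493978 to 142522344), Gbp7 (142530342 to 142550149), Gbp3 (142560026 to 142573209) and Gbp2 (142620602 to 142638008). On the minus strand of chromosome 5 lie Gbp8 (105014150 to 105139540), Gbp9 (105077630 to 105139539), Gbp4 (105115767 to 105139586) and Gbp6 (105270702 to 105293698). Gbp4, Gbp8 and Gbp9 overlap one another and share 60 or 61 exon bases. Gbp6 is the least separable member. Of its exon bases 29.0% also belong to the neighbouring gene Gm43302, and 70.7% of its stretches of 50 transcript bases recur in other genes, against 1.4% for Gbp5, 2.0% for Gbp2 and 18.1% for Gbp8. For reads that fitted several places the authors kept a single location, so counts of Gbp6 cannot be fully told apart from those of its near-copies.

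The promoters of the chromosome 3 members are shown because factors activated by interferons read short motifs there. RefSeq promoter entries (GRCm38.p6) matched 4 of the 8 members. Gbp4, Gbp6, Gbp8 and Gbp9 had no entry. The 250 bases before each annotated start were searched on both strands for GAAANNGAAA, a core of the interferon-stimulated response element (ISRE), and for TTCNNNGAA, a core of the gamma-activated site (GAS). Capitals mark matches. The Gbp5 and Gbp3 lines stop before the next annotated exon, and the Gbp2 line is a stretch of 30 bases around its match, which lies in an annotated Gbp2 exon.
Gbp5, plus strand, chr3:142496684-142496899: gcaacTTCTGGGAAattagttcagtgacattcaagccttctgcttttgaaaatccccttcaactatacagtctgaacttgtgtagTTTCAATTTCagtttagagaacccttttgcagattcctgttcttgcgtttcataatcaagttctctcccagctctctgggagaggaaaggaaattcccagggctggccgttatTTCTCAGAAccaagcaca
Gbp7, plus strand, chr3:142530086-142530335: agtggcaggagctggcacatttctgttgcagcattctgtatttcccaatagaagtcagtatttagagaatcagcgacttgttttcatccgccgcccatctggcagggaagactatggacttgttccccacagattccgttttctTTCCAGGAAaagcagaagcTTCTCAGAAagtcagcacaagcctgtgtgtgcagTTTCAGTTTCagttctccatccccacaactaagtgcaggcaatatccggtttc
Gbp3, plus strand, chr3:142559794-142560025: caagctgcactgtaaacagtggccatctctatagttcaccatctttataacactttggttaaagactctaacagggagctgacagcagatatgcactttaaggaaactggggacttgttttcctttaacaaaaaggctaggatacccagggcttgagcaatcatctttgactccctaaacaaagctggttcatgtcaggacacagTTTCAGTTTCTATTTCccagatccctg
Gbp2, plus strand, chr3:142620594-142620623: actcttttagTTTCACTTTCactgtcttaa

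The ISRE-like letters were found at all 4 of these genes. They stood 156 bases before the RefSeq start of Gbp5, 44 before that of Gbp7 and 50 before that of Gbp2. At Gbp3 overlapping matches stood 36 and 30 bases before the first RefSeq start. For Gbp5, Gbp3 and Gbp2 the RefSeq start lies downstream of the GENCODE gene start given above, and the Gbp5 window lies inside the GENCODE gene. A second RefSeq start of Gbp3 held no match to either motif. Of all 32851 promoter windows of the same length 2.98% held the ISRE-like letters. The GAS-like letters stood in pairs, 237 and 44 bases before Gbp5 and 98 and 79 before Gbp7, and were not in the windows of Gbp3 and Gbp2. They were in 7.02% of all windows, and both motifs together in 0.33%. Gbp5 and Gbp7, which held both, had the largest and the smallest line difference of these 4 genes, as described next.

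The 12 libraries held 27116201 to 39698572 counts. The first principal component, with 83.62% of the variance of the most variable genes, separated the lines, and EKO_ut replicate 1 and EKO_OVA replicate 1 stood at 19.13 and 20.86 on the second, against -18.67 to -0.97 for the other EKO libraries. Siglece itself was at 150.0 to 163.2 CPM, which are counts scaled to a common library size, in CtrV libraries and at 165.8 to 234.9 CPM in EKO libraries. Its mRNA was thus not lower in the line labelled knockout. It was called higher there, at 0.31 ± 0.08 log2 with OVA (edgeR adjusted p = 0.011) and 0.41 ± 0.08 without it (edgeR adjusted p = 0.0026). The paper reports that its clones were screened for Siglec-E expression and that those pooled had little or none. Counts over exons do not show a small edit, and the cells are therefore called EKO-labelled. All 12 dendritic cell markers were detected, with a summed level of 24602 to 27628 CPM that Cd74, H2-Ab1 and H2-Aa led, and 6 of them were called higher and 1 lower between the lines in each condition, at -0.27 to 1.74 log2 with OVA. All 8 T and NK cell markers stayed under 1 CPM in every library, among them Cd2, Cd3e, Cd3g, Ncr1 and Prf1 at 0, and summed to 0.286 to 0.446 CPM in CtrV_ut, 0.302 to 0.567 in CtrV_OVA, 0.659 to 0.825 in EKO_ut and 0.578 to 0.891 in EKO_OVA. All 5 B cell markers also stayed under 1 CPM and summed to 0.0358 to 0.282, 0.0662 to 0.181, 0.733 to 0.923 and 0.546 to 1.07 CPM in the same order. All 6 granulocyte and mast cell markers were at 0. Of 7 fibroblast and epithelial markers 6 stayed under 1 CPM, and Cdh1 carried nearly all of a sum of 549.8 to 634.9 CPM in CtrV and 151.9 to 182.3 CPM in EKO libraries. The part of these markers in the results below was not tested. In bulk libraries, fewer responding cells and less RNA per responding cell cannot be told apart.

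Of the 8 members 7 were higher in EKO-labelled than in CtrV cells, with OVA and without it, and none was lower. Gbp7 was the member that did not pass the test in either condition. Genes were tested with the quasi-likelihood test of edgeR, p-values were adjusted over all 14079 tested genes by the Benjamini-Hochberg method, and a gene was called at an adjusted p under 0.05. These counts stand against a wide difference between the lines, since 25.1% of all tested genes were called higher and 21.9% lower with OVA, and 24.5% higher and 21.9% lower without it. The median log2 fold change of the members was 0.81 with OVA and 0.95 without, beside 0.00 in both for all tested genes. The 3 libraries of each group did not overlap, with EKO-labelled above CtrV, for 6 members with OVA and for 7 without, where 27% and 24.1% of all tested genes did the same. Gbp6 passed the expression filter only through its EKO libraries, so it had to be higher there to be tested at all. Of the 7 members that passed through libraries of each line 6 were called higher in both conditions, with a median of 0.54 with OVA and 0.63 without.

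**Figure D1:**
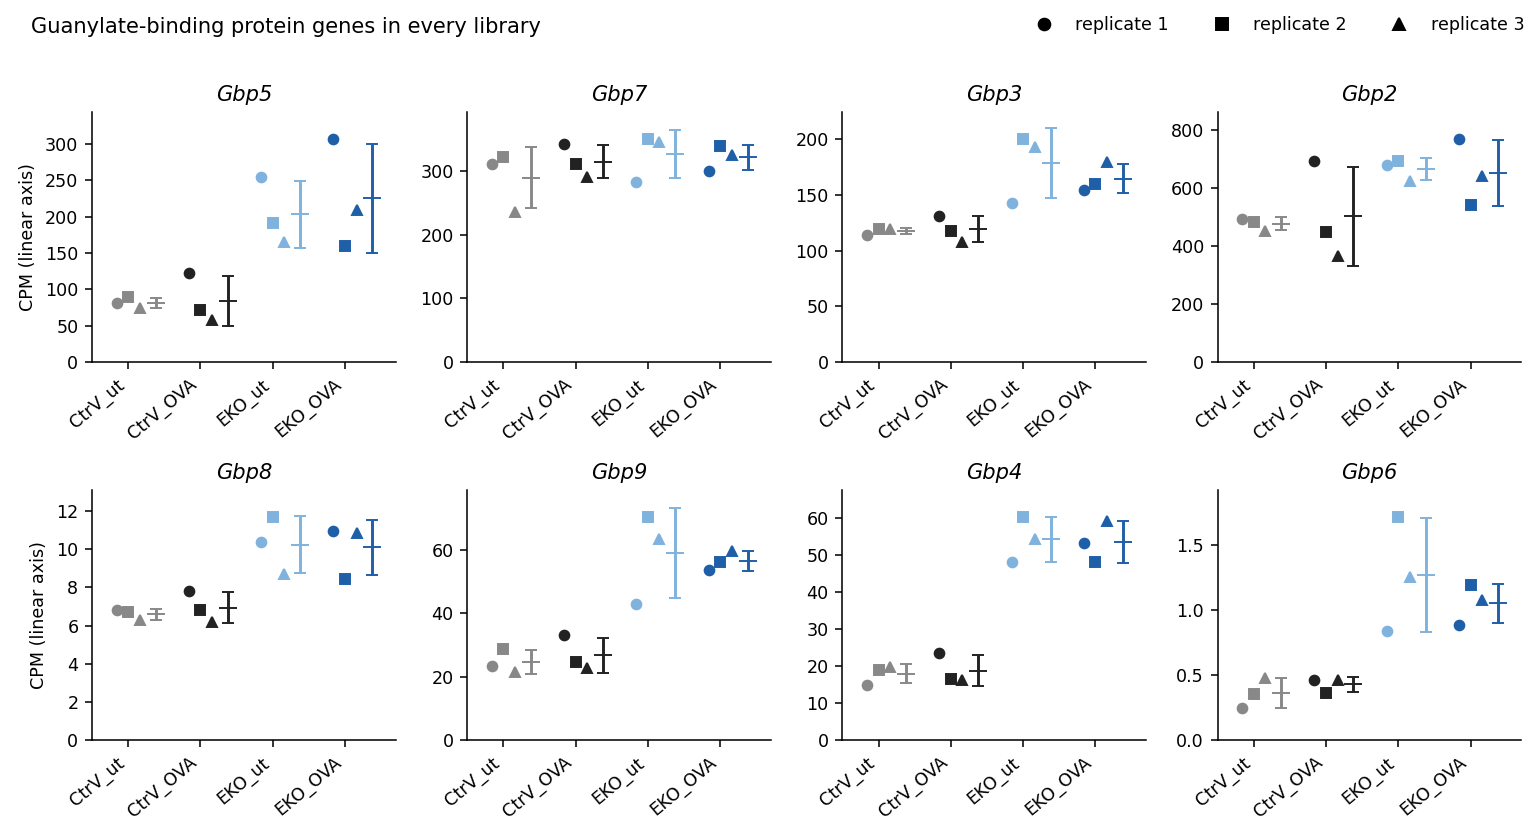
Level of each member in CPM (linear axis from 0) in the 12 libraries by group, chromosome 3 genes above and chromosome 5 genes below. Symbols give the replicate number, bars the mean ± SD of 3 libraries. Gbp4 lay at 15.0 to 23.5 CPM in CtrV and 48.0 to 60.2 CPM in EKO libraries, while the groups of Gbp7 overlapped.

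Gbp5 supports assembly of the NLRP3 and AIM2 inflammasomes. Its level was 81.0, 88.9 and 74.2 CPM in CtrV_ut and 123.0, 71.1 and 57.8 CPM in CtrV_OVA. The EKO_ut libraries held 254, 191 and 165 CPM and the EKO_OVA libraries 307, 159.7 and 209 CPM. Every EKO library was above every CtrV library, and replicate 1 was the highest of its group in both EKO groups and in CtrV_OVA. The log2 fold change between lines was 1.45 ± 0.18 (SE, n = 3 per group) with OVA, a 2.73-fold higher level (edgeR adjusted p = 9.1e-05). Without OVA it was 1.28 ± 0.18 (edgeR adjusted p = 0.00023).

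Gbp2, a prenylated member that coats pathogen vacuoles, was the most abundant by far. Libraries of CtrV_ut held 494, 484 and 452 CPM and those of EKO_ut 678, 694 and 624 CPM, with no overlap. With OVA, CtrV cells held 692, 447 and 366 CPM and EKO-labelled cells 768, 540.4 and 642 CPM. There the groups overlapped, because CtrV_OVA replicate 1 was above 2 of the EKO_OVA libraries. The line difference was small, at 0.48 ± 0.15 log2 without OVA (edgeR adjusted p = 0.02) and 0.40 ± 0.15 with OVA (edgeR adjusted p = 0.045). It was the least stable of the 7 calls. A fit that left out the replicate number did not call it with OVA (0.37, edgeR adjusted p = 0.146) or without it (0.48, edgeR adjusted p = 0.0674), and the call was lost in 4 of 6 fits with OVA and 3 of 6 without OVA that left out 1 library, at values of 0.23 to 0.62 and 0.38 to 0.60. Those libraries were replicates 2 and 3 of CtrV_OVA and 1 and 3 of EKO_OVA, and replicate 1 of CtrV_ut and 2 and 3 of EKO_ut.

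Gbp3 was at 114, 119 and 119 CPM in CtrV_ut and at 131, 118 and 108 CPM in CtrV_OVA. EKO_ut libraries held 143, 200.1 and 193 CPM and EKO_OVA libraries 155, 160.0 and 179.6 CPM, all above the CtrV values. The log2 fold change was 0.46 ± 0.11 with OVA (edgeR adjusted p = 0.0069) and 0.60 ± 0.11 without it (edgeR adjusted p = 0.0016).

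Gbp7 has been tied to the assembly of the oxidase that makes superoxide at phagosomes. It lies directly beside Gbp5. Its level was 311, 323 and 236 CPM in CtrV_ut, 342, 312 and 291 CPM in CtrV_OVA, 283, 350.1 and 346 CPM in EKO_ut and 301, 339.7 and 326 CPM in EKO_OVA. The groups overlapped in both conditions. The log2 fold change was 0.03 with OVA (95% interval -0.22 to 0.28, edgeR adjusted p = 0.84) and 0.18 without it (-0.07 to 0.43, edgeR adjusted p = 0.23). With OVA a difference above 0.28 in either direction thus lay outside the interval, whereas the same interval for Gbp5 began at 1.04. Without OVA, Gbp7 was called higher once EKO_ut replicate 1 was left out (0.30, edgeR adjusted p = 0.049) and once the replicates 1 of both EKO groups were (0.33, edgeR adjusted p = 0.014), and all 8 members were then called. Of its exon bases 11.3% are shared with Gm43802 on the same strand, whose own difference with OVA was -0.04 (edgeR adjusted p = 0.68).

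**Figure D2:**
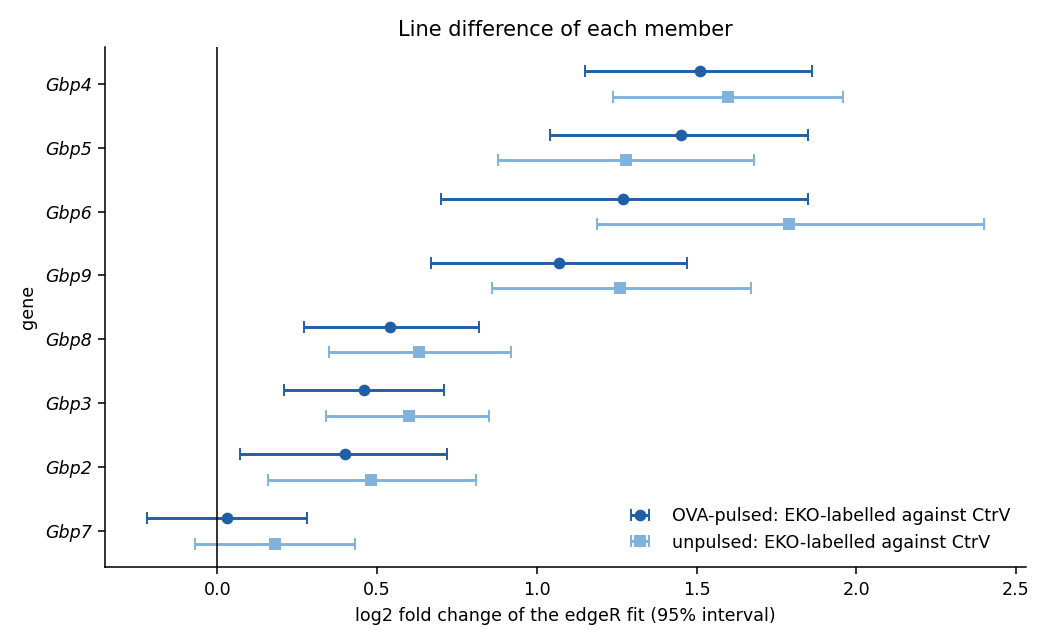
Log2 fold change of the edgeR fit between EKO-labelled and CtrV cells for each member, with its 95% interval, in OVA-pulsed (dark circles) and unpulsed cells (light squares). Only the intervals of Gbp7 cross 0, and those of Gbp4, Gbp5 and Gbp6 with OVA are centred above 1.2. Gbp6 passed the expression filter only through EKO libraries, so its intervals are values without a test.

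On chromosome 5 Gbp4, Gbp8 and Gbp9 were called higher in both conditions, and so was Gbp6, with the limit given above. Gbp4 was at 15.0, 18.9 and 19.8 CPM in CtrV_ut and at 23.5, 16.5 and 16.2 CPM in CtrV_OVA. It was at 48.2, 60.2 and 54.3 CPM in EKO_ut and at 53.2, 48.0 and 59.3 CPM in EKO_OVA. The lowest EKO library held more than the highest CtrV library in both conditions. This was the largest difference with OVA among the members, at 1.51 ± 0.16 log2 or 2.84-fold (edgeR adjusted p = 2.5e-05), and it was 1.60 ± 0.16 without OVA (edgeR adjusted p = 2e-05).

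Gbp9 was at 23.3, 28.8 and 21.6 CPM in CtrV_ut and at 33.1, 24.5 and 22.6 CPM in CtrV_OVA. EKO_ut libraries held 43.0, 70.3 and 63.4 CPM and EKO_OVA libraries 53.6, 56.1 and 59.8 CPM. The lines did not overlap, and EKO replicate 1 was the lowest of its group in both conditions. The log2 fold change was 1.07 ± 0.18 with OVA (edgeR adjusted p = 0.0007) and 1.26 ± 0.18 without it (edgeR adjusted p = 0.00027).

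Gbp8 was weakly expressed, at 6.83, 6.69 and 6.28 CPM in CtrV_ut and at 7.80, 6.82 and 6.19 CPM in CtrV_OVA. It was at 10.4, 11.7 and 8.68 CPM in EKO_ut and at 11.0, 8.45 and 10.8 CPM in EKO_OVA. Again every EKO library was above every CtrV library. The log2 fold change was 0.54 ± 0.12 with OVA (edgeR adjusted p = 0.0045) and 0.63 ± 0.13 without it (edgeR adjusted p = 0.0023).

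Gbp6 was near the limit of what these libraries show. It had 7, 10 and 14 counts in CtrV_ut, 17, 12 and 14 in CtrV_OVA, 23, 52 and 41 in EKO_ut and 34, 37 and 35 in EKO_OVA. All EKO libraries were above all CtrV libraries in raw counts and in CPM, the latter between 0.246 and 0.480 in CtrV and between 0.842 and 1.71 in EKO libraries. The log2 fold change was 1.27 ± 0.26 with OVA and 1.79 ± 0.27 without it, given as values because of how the gene passed the filter. Its overlapping neighbour Gm43302 had 6 to 14 counts in CtrV and 18 to 34 in EKO libraries, and like Gbp6 it passed the expression filter only through EKO libraries.

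Against the 8 members, the EKO replicates 1 did not deviate in one direction. In both conditions they were below replicates 2 and 3 for Gbp3, Gbp6, Gbp7 and Gbp9 and above them for Gbp5. Within the groups, members also moved apart. After the group means were taken off, Pearson's r over the 12 libraries ranged from -0.37 (Gbp5 with Gbp6) to 0.92 (Gbp2 with Gbp5), with a median of 0.45 over the 28 pairs. Gbp3 and Gbp9 had an r of 0.88 and Gbp7 and Gbp9 one of 0.80, while Gbp5 and Gbp7 had one of 0.01. These values are descriptions, and the points share libraries and depth.

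Pulsing with OVA was the other factor of the design. None of the 8 members was called between OVA-pulsed and unpulsed cells of the CtrV line or of the EKO line, nor for a dependence of the line difference on pulsing. In each of the 3 comparisons 0% of all tested genes was called higher and 0% lower by edgeR at an adjusted p under 0.05. At an unadjusted p under 0.05 edgeR, DESeq2 and limma voom again gave 0 of 8 members in each, and over all genes 231, 44 and 246 in CtrV, 394, 156 and 423 in EKO-labelled cells and 269, 103 and 297 for the dependence.

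Member differences on pulsing ranged from -0.03 (Gbp5) to 0.26 log2 (Gbp6) in CtrV and from -0.26 (Gbp6) to 0.13 (Gbp5) in EKO-labelled cells. For Gbp2 the 95% interval was -0.29 to 0.36 in CtrV and -0.37 to 0.28 in EKO-labelled cells. The intervals of the line by pulsing term were wider, for example -0.40 to 0.73 for Gbp5 and -0.59 to 0.40 for Gbp4, so that a dependence of moderate size was not detectable here. The line difference was larger without OVA than with it in 7 of the 8 members, Gbp5 being the exception, but no single dependence passed the test. The members share libraries, and CtrV_OVA replicate 1 was the highest of its group for every member but Gbp6. When 1 library was left out, values with OVA reached 0.62, 0.61, 1.78, 0.68 and 1.36 for Gbp2, Gbp3, Gbp4, Gbp8 and Gbp9. These were above the 0.48, 0.60, 1.60, 0.63 and 1.26 without OVA, while Gbp6 and Gbp7 stayed below theirs. No such count is given for all tested genes.

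To compare levels between genes, CPM were divided by the length of each gene's exon union in kb. Gbp2 came first with 145.7 to 305.1 CPM per kb over the 12 libraries and Gbp6 last with 0.0414 to 0.288. Of the summed level of the 8 genes Gbp2 held 58.3 to 67.6%. In CtrV libraries Gbp7 (41.96 to 60.93 CPM per kb) lay above Gbp3 (33.07 to 40.23), and Gbp4 (2.00 to 3.14) overlapped with Gbp8 (1.80 to 2.27). In EKO libraries Gbp7 (50.44 to 62.36) and Gbp3 (43.72 to 61.29) overlapped, and Gbp4 (6.41 to 8.04) lay above Gbp8 (2.45 to 3.39).

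The summed level per kb was 247.8 to 406.6 in CtrV and 368.3 to 473.1 in EKO libraries, with CtrV_OVA replicate 1 the only CtrV library above the lowest EKO library. The share of Gbp5 in this sum was 3.51 to 4.56% in CtrV and 5.97 to 9.77% in EKO libraries. The share of Gbp7 was 15.0 to 20.9% and 11.3 to 16.4%, respectively. The ratio of Gbp5 to Gbp7, which does not depend on library scaling, was 0.168 to 0.304 in CtrV and 0.398 to 0.862 in EKO libraries. No test is given for this ratio, since the pair was singled out after its values were seen. With the longest coding transcript as length, mean levels of Gbp4, Gbp5 and Gbp8 rose to 7.96, 39.5 and 3.44 CPM per kb from 4.82, 22.4 and 2.46, and the median of Gbp3 in EKO libraries (63.31) came above that of Gbp7 (59.26).

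**Figure D3:**
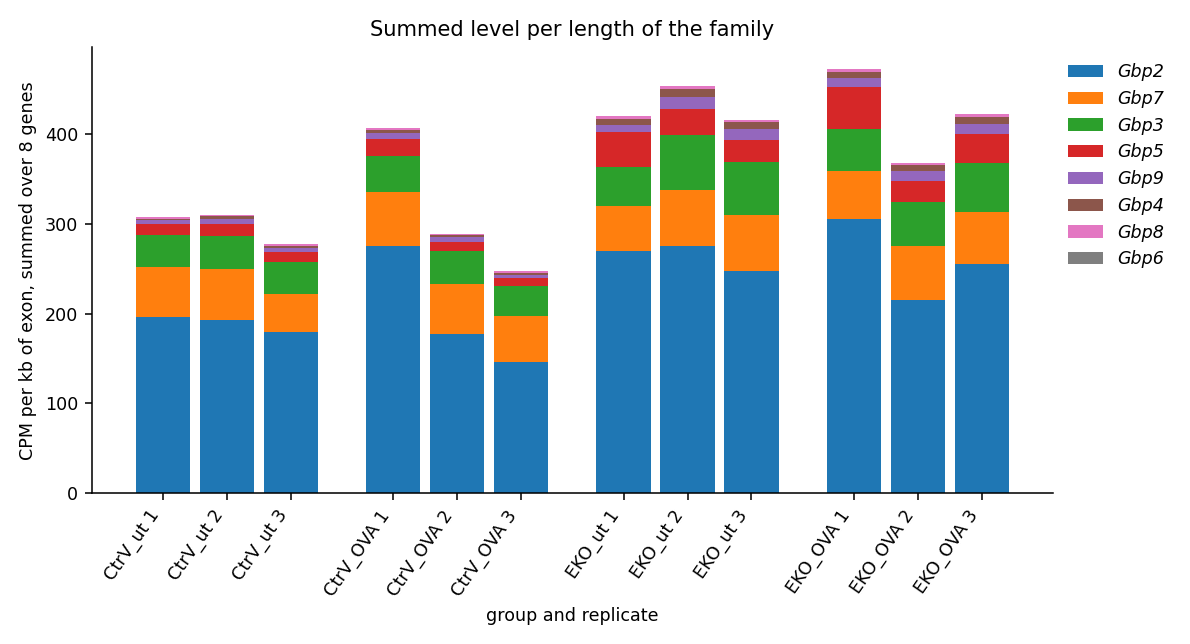
Stacked bars of CPM per kb of exon for the 8 members in each library, from 0, in the order of groups and replicates. Gbp2 makes up 58.3 to 67.6% of each bar, and the Gbp5 segment is larger in all 6 EKO libraries than in the CtrV libraries.

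Gbp2b, Gbp10 and Gbp11 complete the family in the annotation together with the pseudogene Gbp2-ps. Gbp2b, the mouse gene also known as Gbp1, lies between Gbp3 and Gbp2 and had 7.82 to 13.4 CPM over all libraries. Its line difference was 0.11 ± 0.22 log2 with OVA (edgeR adjusted p = 0.7) and 0.37 ± 0.22 without it (edgeR adjusted p = 0.2). Gbp11 had 8 to 15 counts in CtrV and 15 to 33 in EKO libraries and passed the expression filter only through 2 EKO libraries, so its line difference (0.76 ± 0.31 log2 with OVA and 1.13 ± 0.30 without) is given as a value without a test. Gbp10 was not tested. It had 2 to 6 counts in CtrV and 8 to 23 in EKO libraries, and 84.1% of its stretches of 50 bases recur in other genes, most often in Gbp6.

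Neither cluster lay in a stretch of genes that were all higher. Of the 3 nearest tested genes on each side of the chromosome 3 cluster 4 were called higher and 1 lower with OVA, and 2 higher and 1 lower without it. Of these genes Gm2451 and Rap1gds1 lie 2840 and 3420 kb away and the others within 122 kb. Their log2 fold changes with OVA were between -0.51 (Kyat3, 32.0 kb away) and 0.30 (Gtf2b). Around the chromosome 5 cluster 0 of 6 were called higher by edgeR in either condition, and 3 were called lower in each. Lrrc8c was at -0.68 ± 0.08 with OVA (edgeR adjusted p = 3.8e-05). Abcg3, at -1.81 with OVA, passed the expression filter only through CtrV libraries. Gm42141, at -0.58, passed it in 5 CtrV libraries and 1 EKO library, where 2 are needed. Of the 10 neighbours of both clusters that passed through each line, 4 were called higher and 2 lower with OVA. Without it 2 were called higher and 3 lower. Of all tested genes 25.1% were called higher and 21.9% lower with OVA, and 24.5% and 21.9% without it. The members reached 0.03 to 1.45 on chromosome 3 and 0.54 to 1.51 on chromosome 5.

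**Figure D4:**
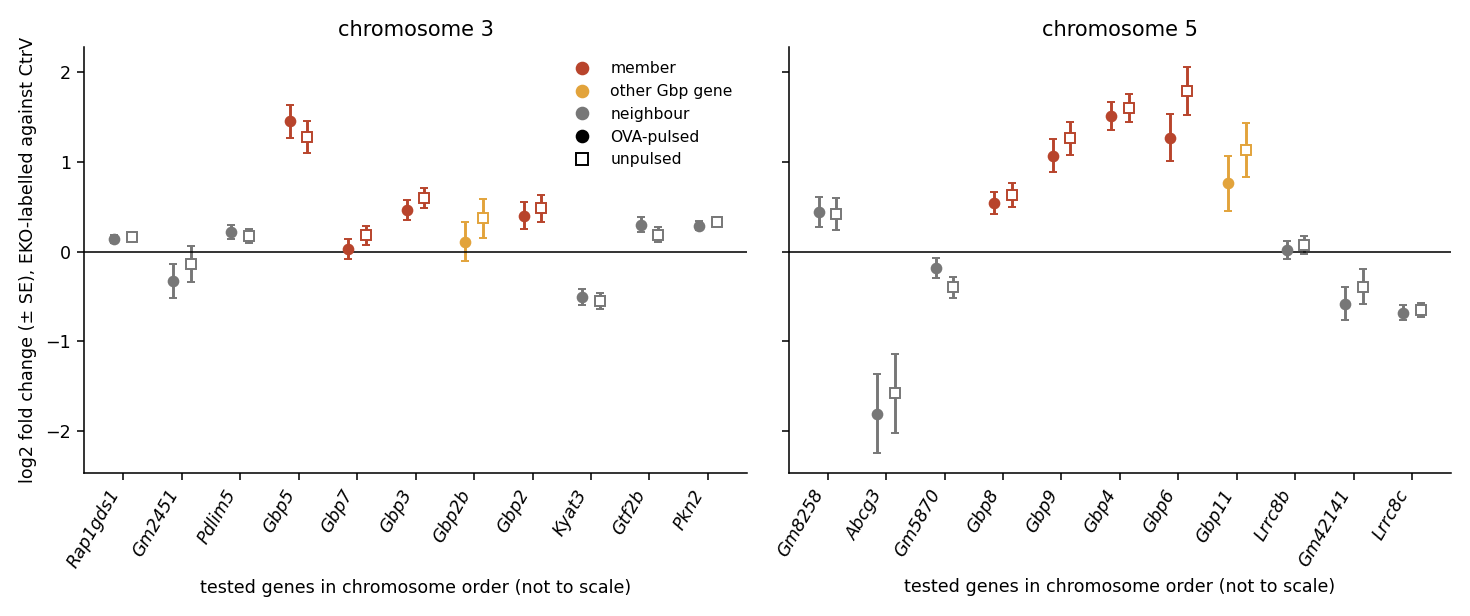
Log2 fold change ± SE between EKO-labelled and CtrV cells for tested genes in chromosome order (not to scale), for both clusters and the 3 nearest tested genes on each side. Filled circles are OVA-pulsed and open squares unpulsed cells. Gbp5 and Gbp7, direct neighbours, lie at 1.45 and 0.03 with OVA.

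Other interferon-inducible GTPases moved with the GBPs. Of 13 listed genes of the immunity-related GTPase, Mx and very large GTPase families 11 were tested, and 10 were called higher and 1 lower in both conditions. Over all tested genes 25.1% were called higher and 21.9% lower with OVA, and 24.5% and 21.9% without it. The median log2 fold change was 0.80 with OVA and 1.04 without it. With OVA the largest value was 1.64 ± 0.25 for the antiviral gene Mx2 (edgeR adjusted p = 0.00031), followed by Gm12250 at 1.30 ± 0.24 and Ifi47 at 1.19 ± 0.22. Irgm1, a regulator that keeps these GTPases off the cell's own membranes, was at 1.11 ± 0.23 (edgeR adjusted p = 0.0023). Irgq, which is not known as interferon-induced, was lower by a small margin, at -0.15 ± 0.05 (edgeR adjusted p = 0.025), and without the replicate block it was not called in either condition. Tgtp1 and Tgtp2 are near-identical copies whose counts may be split. The counts of higher genes were 7 to 10 with OVA and 9 to 10 without it over 17 alternatives without a fold-change limit, with the 7 reached when replicate 2 or 3 of CtrV_OVA was left out, and without the EKO replicates 1 they were 10 in both.

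Genes of interferon signalling, not all of which turn GBP genes on, were mixed. Of 19 listed genes 18 were tested, of which 10 were called higher and 3 lower with OVA and 11 higher and 3 lower without it. The shares of all tested genes were 25.1% higher and 21.9% lower with OVA, and 24.5% and 21.9% without it. Over 17 alternatives the counts of higher genes were 9 to 11 in both conditions, and leaving out the replicate block gave 9 in both. Irf1, an activator of GBP genes, was at 30.8 ± 5.34 CPM (SD, n = 3) in CtrV_OVA and 35.1 ± 4.38 CPM in EKO_OVA and its log2 fold change was 0.19 ± 0.08 with OVA (edgeR adjusted p = 0.072) and 0.23 ± 0.08 without it (edgeR adjusted p = 0.036), values that lay within an SE of each other.

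Of the chains of the interferon gamma receptor the ligand-binding Ifngr1 was lower in EKO-labelled cells with OVA (-1.11 ± 0.05, edgeR adjusted p = 1e-07) and Ifngr2 higher (0.96 ± 0.06, edgeR adjusted p = 3.3e-07). Ifng itself was not tested, with group means of 0.0237 to 0.0581 CPM, under the 0.0784 CPM that 3 counts made in the deepest library. Ifnb1, a type I interferon gene, had group means of 0.221 and 0.147 CPM in CtrV_ut and CtrV_OVA and of 3.68 and 2.92 CPM in EKO_ut and EKO_OVA. It passed the expression filter only through EKO libraries, and its log2 fold change of 4.29 ± 0.55 with OVA is given without a test. Without it 9 of 17 signalling genes were called higher with OVA and 10 without.

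**Figure D5:**
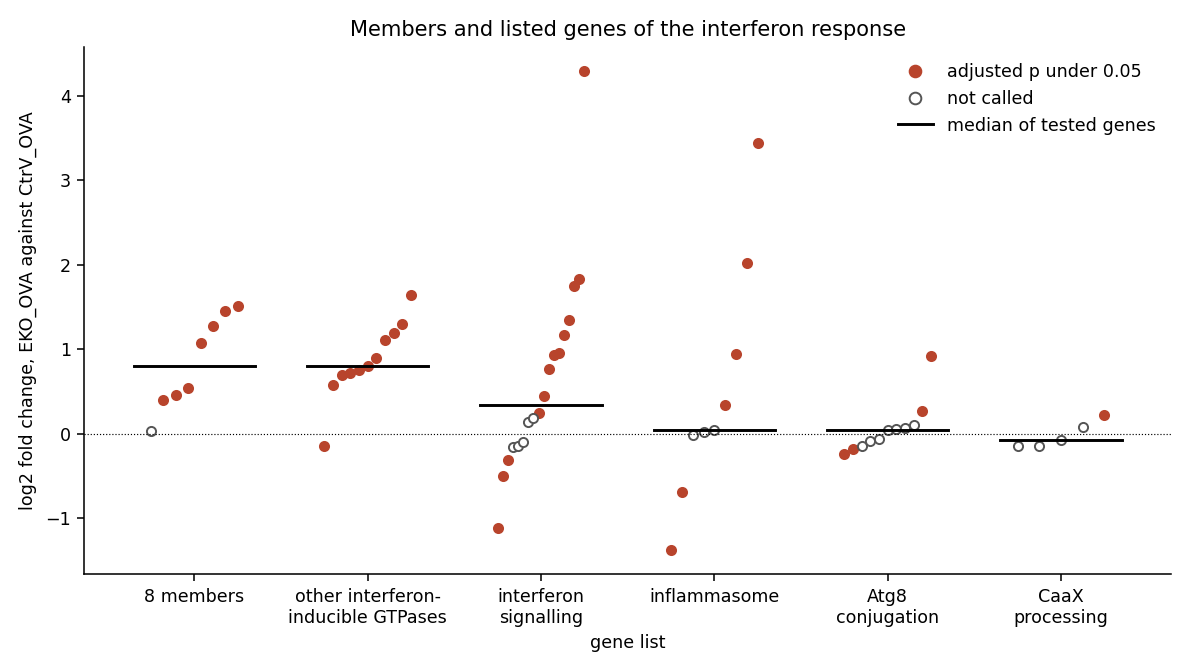
Log2 fold change between EKO_OVA and CtrV_OVA for each tested gene of 6 lists. Filled points had an adjusted p under 0.05 and open points did not. Gbp6, Ifnb1 and Casp4 are filled, but they passed the expression filter only through EKO libraries and are values without a test. Bars are medians, at 0.81 for the members (Gbp6 included) and 0.80 for the other interferon-inducible GTPases. The last 3 lists had medians of 0.04, 0.04 and -0.07.

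Genes of processes in which GBPs act did not move as groups in one direction. Their counts stand beside 25.1% of all tested genes called higher and 21.9% lower with OVA, and 24.5% and 21.9% without it. The counts of the Atg8 and CaaX lists below lie under these shares, so they do not set these lists apart. Of 9 inflammasome genes 4 were called higher and 2 lower with OVA, as without it, with a median of 0.04 with OVA. Casp4, the sensor of cytosolic LPS, was at 0.257 ± 0.176 CPM in CtrV_OVA and 2.95 ± 0.899 CPM in EKO_OVA and passed the expression filter only through EKO libraries, and without it 3 of 8 were called higher in each condition. Il1b was higher by 2.02 ± 0.19 (edgeR adjusted p = 1.1e-05). Gsdmd, the pore-former that Casp4 and Casp1 cleave, was lower (-1.38 ± 0.08, edgeR adjusted p = 3.3e-07). Of 11 genes of Atg8 conjugation, which guides GBPs to vacuoles, 2 were higher and 2 lower with OVA, among them the cargo receptor Sqstm1 (0.92 ± 0.12, edgeR adjusted p = 0.00012), Atg12 (0.27 ± 0.06) and Gabarapl1 (-0.24 ± 0.09). Of 5 genes of CaaX processing 1 was higher with OVA, Pggt1b of the enzyme that attaches geranylgeranyl (0.22 ± 0.07, edgeR adjusted p = 0.019). Rce1 and Icmt, which finish the CaaX end, were at -0.15 ± 0.06 and -0.14 ± 0.06 with OVA and were not called (edgeR adjusted p = 0.076 and 0.071), while without OVA Icmt was called lower (-0.19 ± 0.06, edgeR adjusted p = 0.023).

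The genes most alike to the family were found by Pearson's r with the mean standardized log2 CPM of the 8 members over the 12 libraries. Dtx3l, Znfx1 and Parp14 each reached 0.992, Klhl24 0.984 and Mx1 0.983. Because the libraries fall into 2 lines, 1064 genes were above 0.9, and this ranking mostly describes the line difference. The members themselves had values from 0.560 (Gbp7) to 0.986 (Gbp9). After the group means were taken off, 19 genes stayed above 0.9, led by Foxp1 (0.969), Il18bp (0.960), which encodes a decoy for interleukin 18, Birc3 (0.952), Zfp869 (0.942) and Dtx3l (0.940). Dtx3l was among the first 5 in both rankings. It was 1.07 ± 0.14 log2 higher in EKO-labelled cells with OVA, given without a test because the first ranking selects for the line difference.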

How the data were processed

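RNA sequencing counts of 12 libraries of LPS-stimulated Sp37A3 cells were used. The authors deposited unnormalized counts, whole numbers of reads for each gene. Per the study's methods the alignment to mm10 was made with STAR, reporting 1 location for a read with several, and sorted with SAMtools, and 5′ read ends on exon unions were counted with featureCounts and an Ensembl gene model. Whether counting used the strand is not given in the sources used here. Of 55401 rows 28881 had at least 1 count, and 55141 were given a symbol from GENCODE of GRCm38, which is not the gene model the counts were made with. Groups and replicate numbers came from the labels, doses and times from the methods or labels. The LPS dose of unpulsed cells was not used.

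Counts were TMM-normalized, and a gene entered the tests when its log2 CPM exceeded 0 in 2 or more libraries, which left 14079 genes and all 8 members. Tests used edgeR 4.0.16 (R 4.3.3, quasi-likelihood fit) over all 12 libraries, with group and replicate number as covariates as in the methods. Benjamini-Hochberg adjusted p under 0.05 counted as called, without a fold-change limit, because the methods name such limits without their values. DESeq2 1.42.0 and limma 3.58.1 (voom) were alternatives, beside other scalings, filters, thresholds and left-out libraries. The fit was tested on simulated data. Level intervals cover the spread between libraries, and depth was similar, with 3 counts equal to 0.0784 to 0.110 CPM. Replicates of a group differed by more than counting noise (chi-square per degree of freedom of 4.13 to 36.6).

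Whether the replicate numbers pair libraries was checked by the correlation of deviations from the group means. Between the lines it was 0.448, 0.292 and 0.289 with OVA and 0.06, -0.012 and 0.263 without OVA. Between pulsed and unpulsed cells it was 0.706, 0.351 and 0.411 in the EKO line and 0.077, 0.179 and 0.373 in the CtrV line. No cutoff was set and libraries of different numbers were not compared, so these values do not settle whether the numbers pair libraries.

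Members and gene lists were chosen with earlier results of these data known. Named were all members, up to 6 genes of the other family, GTPase and signalling lists (largest and smallest change with OVA, or a known role in GBP induction), up to 3 of each further list by absolute change, the 3 nearest tested genes on each side of a cluster, and the 5 most alike genes by each measure. Cdh1, Gm43302, Gm43802 and the near-identical Tgtp1 and Tgtp2 were named outside this rule, after their values were seen.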

Additional observations from a re-analysis of the deposited data

How the results depend on the processing

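The counts of members called in the 5 comparisons were recomputed under 18 to 23 alternatives each. With a minimum absolute log2 fold change of 1 the count was 4 of 8 with OVA and 4 of 8 without. Of all 14079 tested genes 793 were then called higher and 475 lower with OVA, and 783 higher and 458 lower without it. Wherever Gbp6 was tested it is included in these counts, though it passed the main filter only through EKO libraries. Under every other alternative it was 6 or 7 with OVA and 6 to 8 without, and it was 0 for pulsing and for the dependence under all of them. Without the replicate block the counts were 6 and 6, Gbp2 being lost, beside 2882 and 2820 of 14079 genes called higher. Under upper-quartile scaling they were 6 and 7, beside 3103 and 2910 genes called higher. A filter of 10 counts in every library removed Gbp6 and left 6 and 6. Leaving out replicate 1 of both EKO groups gave 6 (Gbp2 at 0.43, adjusted p = 0.0557) and 8. Whether the replicate numbers pair libraries was not settled, and apart from Gbp2 the fit without the block changed no call of a member.

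Gbp7 changed its sign with OVA, without ever being called, to -0.0056 under upper-quartile scaling and to between -0.04 and 0.12 when 1 library was left out (-0.0435 without CtrV_OVA replicate 2 and -0.0275 without EKO_OVA replicate 3). The cause was not tested. Gbp3, Gbp4, Gbp5, Gbp8 and Gbp9 stayed called in both comparisons under every alternative without a fold-change limit. Gbp6 passed the main expression filter only through EKO libraries, so its calls under the alternatives are no measure of stability. Of the listed groups, the count of other interferon-inducible GTPases called higher with OVA moved most, to 7 of 11 at the lowest, and the 1 lower call (Irgq) became 0 with OVA under DESeq2, without an expression filter and at an adjusted p under 0.01, among others. In the short lists, Atg8 conjugation had 0 to 3 genes lower with OVA and 1 to 3 without it, and CaaX processing 0 to 1 higher and 0 to 2 lower with OVA and 0 to 2 lower without it. Depth limits Gbp6, Gbp10, Gbp11 and Ifng, which had few counts in CtrV libraries.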
